A study of Mus musculus with 16 samples.

Results

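Epithelial and mesenchymal marker transcripts were examined in mouse embryonic stem cells (ESCs) in which RAM, the activating subunit of the mRNA cap methyltransferase, was suppressed with small interfering RNA (siRNA). The genes were chosen by name and comprised 7 epithelial markers (Cdh1, Epcam, Cldn6, Cldn7, Krt8, Krt18 and Esrp2) and 3 mesenchymal markers (Vim, Fn1 and Zeb1). All 10 were present among the 46983 genes of the count table, and all 10 were among the 12805 genes tested, those whose CPM, the count scaled to a common library total, reached 1 in no fewer than 10 of the 16 libraries. The cells of every group were 46C ESCs, a single line from strain 129Ola mice that carries GFP at the Sox1 locus, grown on gelatin with leukaemia inhibitory factor (LIF). Control cells received a non-targeting siRNA and RAM-suppressed cells received RAM siRNA, and both were lysed 48 hr after transfection in the presence of cycloheximide, which holds ribosomes on mRNA. From each lysate 10% was kept as cytoplasmic input, and fractions 17 to 22 of a sucrose gradient loaded with the rest were pooled as polysomes, so there were 4 groups (input control, input RAM siRNA, polysome control and polysome RAM siRNA) with 4 replicates each, described by the study as biological. The siRNA acts transiently, and every value comes from this 1 cell line. The study's supplement names a single RAM siRNA for these replicates. Effects of its sequence on other genes therefore cannot be told apart from loss of RAM.

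An epithelium is held together by cadherins, claudins and keratins, and a mesenchymal cell has largely replaced these with vimentin filaments and a fibronectin matrix. The switch between the states, the epithelial to mesenchymal transition (EMT), is driven by repressors such as Zeb1, which bind E-boxes and silence epithelial genes, and opposed by the splicing regulators Esrp1 and Esrp2. Naive mouse ESCs grow as compact, cadherin-bound colonies and lie on the epithelial side of this axis, while expressing some vimentin and fibronectin. RAM activates RNMT, the enzyme that methylates the guanosine cap of mRNA, and the cap is bound by the factors that load ribosomes.

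Library totals ranged from 16647523 to 20147833 counts. Ramac, the gene that encodes RAM, fell from 197 to 206 counts in control inputs to 46 to 58 counts in RAM siRNA inputs (log2 fold change -1.84, SE 0.11, adjusted p = 7.24e-06, by the quasi-likelihood test of edgeR, adjusted after Benjamini and Hochberg over the 12805 genes). In polysomes it was at 122 to 256 counts in controls and 5 to 45 after RAM siRNA, with an adjusted p of 0.128 by the same edgeR test, or 2.36e-05 once the replicate number entered the fit as a block. All 8 embryonic stem cell markers on a fixed list averaged at least 1 CPM in every group, with summed levels of 4624 to 4949 CPM in control inputs and 3858 to 4454 CPM after RAM siRNA. The 8 were all fitted lower in input, with a median log2 fold change of -0.18. Of them 3 had an adjusted p under 0.05, and 7 with the block, beside 5.94% and 19.0% of all tested genes lower. Of the 4 polysome RAM siRNA libraries, replicate 2 stood apart, with a mean correlation of 0.881 with the other 3 across genes, against 0.914 to 0.952 for those and 0.981 to 0.993 among input libraries of a group. Polysome libraries of replicates 1 and 2 correlated with those of replicates 3 and 4 at 0.833 to 0.975, and within each pair of numbers at 0.942 to 0.988. These ranges overlapped, and no label names such a split. By chi-square per gene between counts, polysome RAM siRNA replicate 1 differed less from replicate 3 (44.4) than from replicate 2 (122.9). Values without polysome RAM siRNA replicate 2, or from a pair of replicate numbers alone, are given beside the polysome results that they moved most. Where polysome RAM siRNA replicate 2 alone was left out, the control of the same number stayed in the fit.

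The epithelial members lie on 4 chromosomes of GRCm38. Cdh1, which encodes E-cadherin, occupies chr8:106603351-106670246 on the plus strand, and Esrp2 lies on the same chromosome at chr8:106130319-106136974 on the minus strand. Krt18 (chr15:102028180-102032027, plus strand) and Krt8 (chr15:101996698-102004482, minus strand) are neighbours that encode partner keratins. Epcam (chr17:87635979-87651129), Cldn6 (chr17:23679249-23682446) and Cldn7 (chr11:69964779-69967885) are on the plus strand. Of the mesenchymal members, Vim is at chr2:13573927-13582826 on the plus strand and Fn1 at chr1:71585520-71653200 on the minus strand. Exons of Krt8, Esrp2, Fn1 and Zeb1 overlap exons of a gene on the other strand by 101 to 292 bases, and Krt8 has an annotated pseudogene, Krt8-ps. How the counting treated strand and shared sequence is not given in the sources used here, so a few reads of these genes may belong to the other locus.

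The epithelial members with a promoter window share a letter sequence upstream of a RefSeq start. RefSeq promoter windows (GRCm38.p6) were held for 6 of the 10 members, and the 250 bases before the start were searched on both strands for CACCTG, whose reverse complement is CAGGTG and which is the E-box form known to bind the Zeb and Snail repressors. The motif was present in 5 of 5 epithelial members with a window and absent from that of Vim, against 19.4% of 27025 genes with a window and 18.8% of the 9736 tested genes with one. For Cldn7 it lies before the second of 2 annotated starts and not before the first. The RefSeq starts used here for Cldn6, Krt8, Krt18 and Vim, and the second start of Cldn7, lie inside the gene spans given for them. Those spans begin at other annotated starts, and the printed matches of Cldn6 and Cldn7 also lie inside them. The matches of Cldn6, Cldn7, Epcam and Krt18 are given because they are what these promoters have in common, with the E-box in capitals, 10 flanking bases on each side, and the gene's strand read from 5′ to 3′. They are a description of letters and say nothing of binding in these cells.
Cldn6, chr17:23679262-23679287, plus strand: gaaacgcacgCAGGTGgctatcgccg
Cldn7, chr11:69965314-69965339, plus strand: tcttcctcttCACCTGgacgaggagg
Cldn7, chr11:69965354-69965379, plus strand: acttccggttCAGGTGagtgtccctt
Epcam, chr17:87635782-87635807, plus strand: cagtagggccCACCTGctggaggacc
Epcam, chr17:87635950-87635975, plus strand: ccataaaaccCAGGTGtggaggagaa
Krt18, chr15:102027992-102028017, plus strand: gggctaacacCACCTGctatcctttg
The E-box starts 19 bases before the start of Epcam at the nearest and 214 bases before that of Krt18 at the farthest, so no common distance was seen.

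The 10 markers spanned most of the expression range of these cells. Per kilobase of exon, Cdh1 was the highest in control inputs at 140.5 CPM per kb ± 12.6 (SD, n = 4), above 97.7% of 12777 tested genes with a length. Fn1 at 70.96 ± 15.1, Epcam at 68.94 ± 4.72 and Vim at 48.45 ± 4.98 CPM per kb followed, so the most abundant markers included members of both sides of the axis. Cldn6 was at 17.5 CPM per kb ± 4.59 (SD, n = 4), also above the median of 6.127 CPM per kb for all genes. The remaining 5 members were below that median, with Krt8 at 4.653, Cldn7 at 4.267, Krt18 at 2.596, Zeb1 at 2.146 and Esrp2 at 0.78 CPM per kb. In polysomes of control cells the order changed at the top, where Epcam led with 188.8 CPM per kb ± 24.6, and Fn1 was above 76.1% of all genes, against 95.0% in input.

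**Figure D1:**
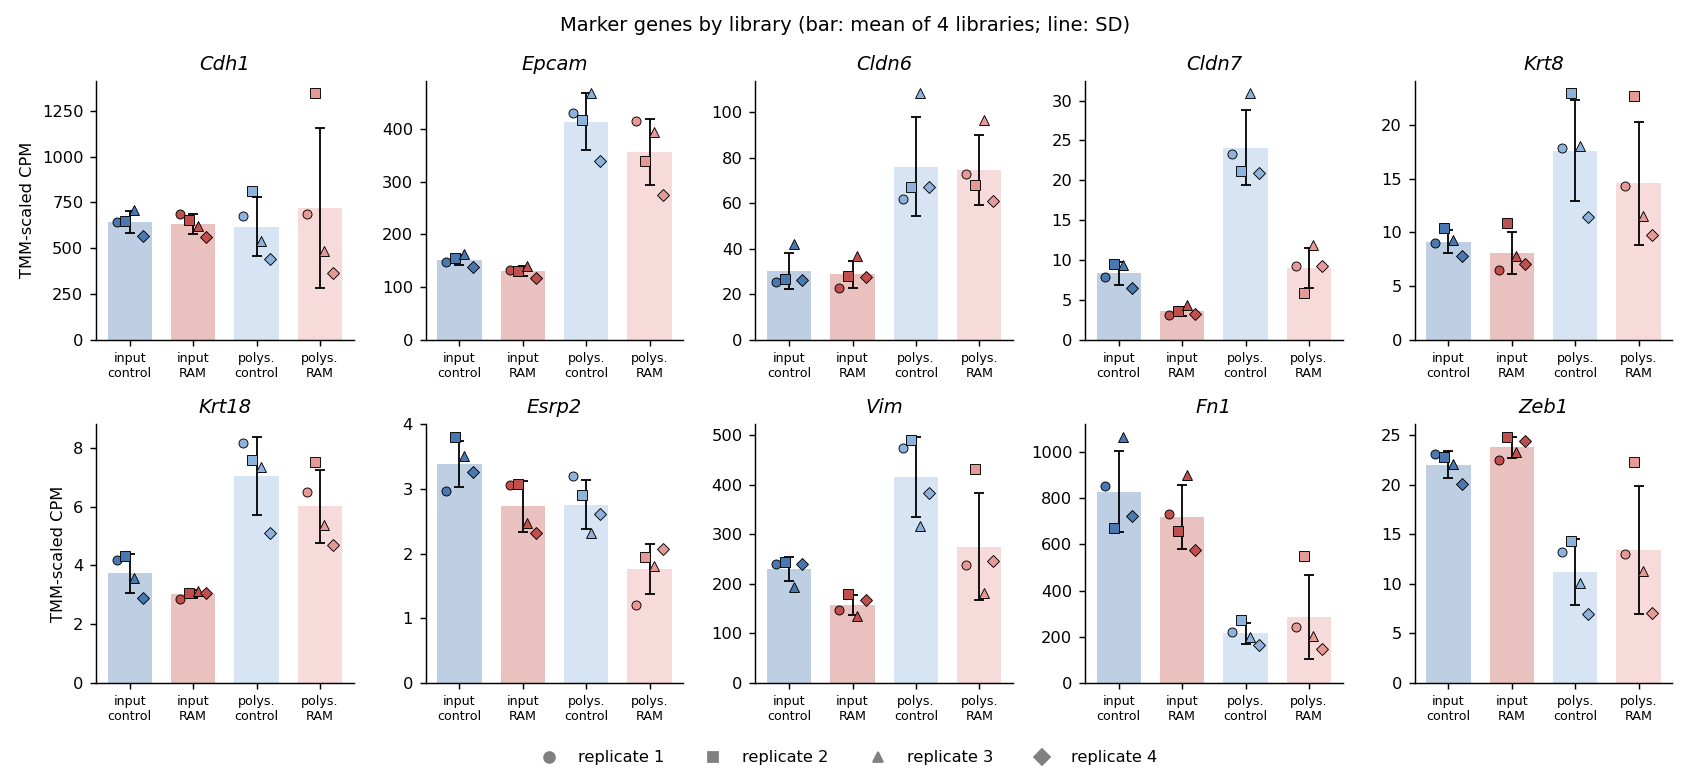
Level of each marker in CPM scaled by the trimmed mean of M values (TMM), one panel per gene with its own vertical axis starting at 0, for input and polysome libraries of control and RAM siRNA cells. Bars are means of 4 libraries, lines are SD, and marker shapes give the replicate number. The RAM siRNA points of Cldn7 lie below all control points in both fractions and those of Vim do so in input, while replicate 2 stands high for Cdh1, Fn1 and Zeb1 among the polysome RAM siRNA libraries.

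The first comparison asked which marker transcripts changed with RAM siRNA in the cytoplasm. Cldn7 fell to 42.8% and Vim to 68.5% of the control mean in input, and no member rose past the threshold. These 2 of 10 members, called without the replicate block, compare with 12.9% of all tested genes called in either direction and 5.94% called lower. Vim is a mesenchymal marker and Cldn7 an epithelial one, so the 2 genes that passed were on opposite sides of the axis. In bulk libraries fewer cells of a type and less RNA per cell cannot be told apart.

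Cldn7, a claudin of epithelial lateral membranes that binds Epcam, was at 7.88, 9.48, 9.42 and 6.47 CPM in control inputs (replicates 1 to 4) and at 3.11, 3.60, 4.35 and 3.17 CPM after RAM siRNA. All 4 RAM siRNA libraries lay below all 4 controls. The log2 fold change was -1.23 (SE 0.16, adjusted p = 0.000619, edgeR's quasi-likelihood test), and the two-sided exact permutation test over libraries gave p = 0.0286, the smallest that 4 against 4 allow. Vim, which encodes the intermediate filament protein vimentin, was at 240.9, 244.3, 194.5 and 239.5 CPM in control inputs and at 147.2, 180.1, 135.6 and 167.2 CPM after RAM siRNA. The highest RAM siRNA library was below the lowest control, replicate 3, and the difference was of -0.55 on the log2 scale (SE 0.10, adjusted p = 0.00505, edgeR's quasi-likelihood test). Groups failed to overlap for these 2 members, and for 18.0% of all tested genes, 8.62% being lower like these 2. Both calls were kept when any 1 library was left out, with edgeR adjusted p of 0.000547 to 0.0041 for Cldn7 and 0.00219 to 0.0234 for Vim. Neither was called from replicates 3 and 4 alone, where no gene of the 12805 was, and where the log2 fold changes were -1.08 for Cldn7 and -0.52 for Vim. In one fit of all 16 libraries Vim had a log2 fold change of -0.55 and an adjusted p of 0.304 by edgeR.

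Epcam and Fn1 missed the threshold without the replicate number as a block and passed it with the block. Epcam, a cell adhesion molecule of epithelia and ESCs, was at 147.7, 155.7, 162.9 and 138.9 CPM in control inputs and at 133.1, 131.1, 139.5 and 117.9 CPM after RAM siRNA. It was lower in 4 of 4 same-numbered pairs although the groups overlapped by the 139.5 CPM of RAM siRNA replicate 3. Its log2 fold change of -0.22 (SE 0.08) had an edgeR adjusted p of 0.0930, and of 0.000375 with the block. It also passed on library sizes alone (-0.24, edgeR adjusted p = 0.0494) and in replicates 1 and 2 alone (-0.20, edgeR adjusted p = 0.0318). Fn1, the matrix glycoprotein fibronectin, was at 853.5, 671.4, 1068 and 723.8 CPM in control inputs and at 731.6, 660.2, 901.4 and 574.4 CPM after RAM siRNA. The spread between replicates was wider than the change, which was again downward in 4 of 4 pairs. The log2 fold change of Fn1 was -0.21 (SE 0.16, edgeR adjusted p = 0.423, and 0.00181 with the block). The block thus gave 4 members called lower, Cldn7, Vim, Epcam and Fn1, beside 39.3% of all genes called in either direction and 19.0% called lower.

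Cdh1, the E-cadherin of ESC colonies, was at 644.3, 647.8, 710.0 and 568.6 CPM in control inputs and at 686.2, 656.0, 622.1 and 562.2 CPM after RAM siRNA. The groups overlapped fully, with 2 pairs lower and 2 higher. The log2 fold change was -0.03 (SE 0.09, edgeR adjusted p = 0.881). Zeb1, a repressor of Cdh1 and other epithelial genes, lies at chr18:5591860-5775467 on the plus strand of GRCm38. It was at 23.2, 22.8, 22.1 and 20.1 CPM in control inputs and at 22.6, 24.9, 23.4 and 24.4 CPM after RAM siRNA. Its log2 fold change of 0.11 (SE 0.08) had an edgeR adjusted p of 0.406, and the groups overlapped. Its SE was the smallest of the 10 members in input.

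Cldn6, a claudin typical of embryonic epithelium, was at 25.4, 26.8, 41.9 and 26.3 CPM in control inputs and at 22.5, 27.8, 36.7 and 27.7 CPM after RAM siRNA. Replicate 3 was high under both siRNAs, and the groups overlapped. The log2 fold change of -0.07 (SE 0.17, edgeR adjusted p = 0.827) differed from that of Cldn7, but the difference between the 2 claudins was not tested. Krt8 and Krt18 encode the first keratin pair of the embryo, which assemble with each other. Krt8 ranged from 7.77 to 10.4 CPM in control inputs and from 6.50 to 10.9 CPM after RAM siRNA, with a log2 fold change of -0.19 (SE 0.16, edgeR adjusted p = 0.495). Krt18 ranged from 2.87 to 4.31 CPM in control inputs and from 2.84 to 3.11 CPM after RAM siRNA, with a log2 fold change of -0.31 (SE 0.16, edgeR adjusted p = 0.227). Esrp2 ranged from 2.96 to 3.81 CPM and from 2.32 to 3.07 CPM, with 41 to 76 counts per library behind these values, and had a log2 fold change of -0.31 (SE 0.16, edgeR adjusted p = 0.223). Each of these 3 genes was lower in 3 of 4 pairs and higher in 1. The median log2 fold change was -0.22 over the 7 epithelial members and -0.21 over the 3 mesenchymal members, beside 0.00 over all tested genes.

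**Figure D2:**
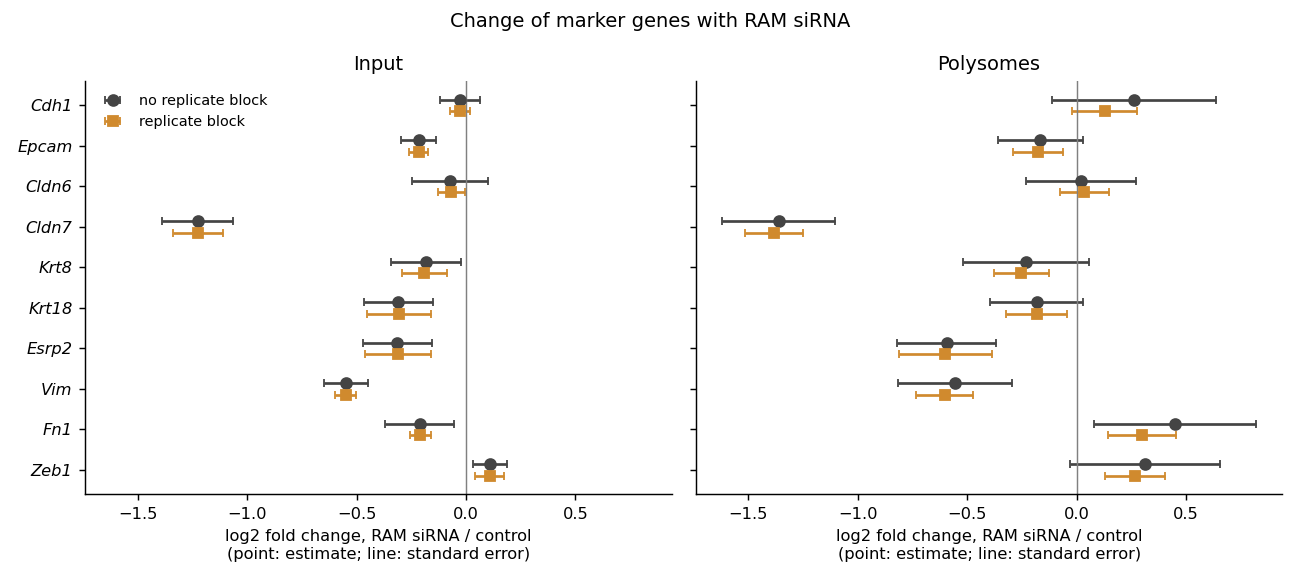
Log2 fold change of each marker between RAM siRNA and control, in input on the left and in polysomes on the right, with points for the estimate and lines for its standard error, without (dark circles) and with (orange squares) the replicate number as a block. Cldn7 is farthest from 0 in both fractions at -1.23 and -1.36, and the standard errors are wider in polysomes, where Fn1 had an SE of 0.37 without the block and 0.16 in input.

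The same comparison in polysomes asked which markers changed among ribosome-bound mRNA. No member passed the threshold by edgeR's quasi-likelihood test without the block, and neither did most of the transcriptome, with 0.0234% of all tested genes called. At an unadjusted p under 0.05, 2 members were lower, Cldn7 and Esrp2, beside 1152 of all genes in either direction. With the block, 2 members were called lower, Cldn7 and Vim, beside 14.6% of all genes called and 4.97% called lower. DESeq2 called 1 member, Cldn7, with an adjusted p of 6.4e-05, beside 2.34% of all tested genes.

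Cldn7 was at 23.3, 21.1, 30.9 and 20.9 CPM in control polysomes and at 9.22, 5.79, 11.9 and 9.19 CPM after RAM siRNA, and the groups did not overlap. The mean after RAM siRNA was 37.5% of that in controls. On the log2 scale the change was -1.36 (SE 0.26), with an edgeR adjusted p of 0.0936 without and 2.6e-05 with the block. Without polysome RAM siRNA replicate 2, which held the lowest value, it was -1.19 (edgeR adjusted p = 0.0694), and it was -1.54 in replicates 1 and 2 and -1.24 in replicates 3 and 4 alone. Vim was at 474.5, 490.8, 316.3 and 382.8 CPM in control polysomes and at 238.7, 432.1, 182.4 and 246.7 CPM after RAM siRNA. It was lower in 4 of 4 pairs, but RAM siRNA replicate 2 at 432.1 CPM lay inside the control range. Its log2 fold change was -0.56 (SE 0.26, edgeR adjusted p = 0.582, and 0.00612 with the block), and -0.84 without that library (edgeR adjusted p = 0.105).

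Esrp2, the epithelial splicing regulator, was at 3.19, 2.91, 2.31 and 2.61 CPM in control polysomes and at 1.21, 1.95, 1.80 and 2.08 CPM after RAM siRNA. The groups did not overlap, as for 6.56% of all tested genes (4.38% lower), and 20 to 59 counts per library stood behind these values. The log2 fold change was -0.59 (SE 0.23, edgeR adjusted p = 0.450, and 0.0703 with the block). Without RAM siRNA replicate 1, the lowest library, it was -0.44 (edgeR adjusted p = 0.859).

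Cdh1, Fn1 and Zeb1 had positive log2 fold changes in polysomes, and replicate 2 was high for each. Cdh1 was at 673.2, 812.9, 536.6 and 443.0 CPM in control polysomes and at 684.8, 1347, 481.9 and 365.8 CPM after RAM siRNA. Fn1 was at 221.3, 273.7, 200.0 and 164.5 CPM in control polysomes and at 242.7, 550.4, 202.4 and 147.6 CPM after RAM siRNA. Zeb1 was at 13.2, 14.4, 10.1 and 6.94 CPM in control polysomes and at 13.0, 22.4, 11.3 and 7.06 CPM after RAM siRNA. For all 3 genes replicate 2 was the highest library of both groups, and each other RAM siRNA value lay inside or below the control range. The log2 fold changes were 0.26 (SE 0.38) for Cdh1, 0.45 (SE 0.37) for Fn1 and 0.31 (SE 0.34) for Zeb1, with edgeR adjusted p of 0.963, 0.868 and 0.938. By pairs, Fn1 and Zeb1 were higher in 3 of 4 and Cdh1 in 2 of 4. Without polysome RAM siRNA replicate 2 alone the changes became -0.21, -0.06 and -0.03. That fit kept control replicate 2, the highest control library of each gene, so these values are not balanced by replicate. With all libraries and the block the changes were 0.13, 0.30 and 0.27, and in replicates 3 and 4 alone -0.15, 0.00 and 0.17.

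The other 4 epithelial members overlapped between groups in polysomes. Epcam was at 340.2 to 468.6 CPM in controls and 274.9 to 416.5 CPM after RAM siRNA and was lower in 4 of 4 pairs (log2 fold change -0.17, SE 0.19, edgeR adjusted p = 0.948). Krt8 (11.5 to 23.0 against 9.73 to 22.8 CPM, log2 fold change -0.23, SE 0.29) and Krt18 (5.12 to 8.18 against 4.69 to 7.51 CPM, log2 fold change -0.18, SE 0.21) were also lower in every pair. Without polysome RAM siRNA replicate 2 the log2 fold change was -0.51 for Krt8 (edgeR adjusted p = 0.382) and -0.29 for Krt18. Cldn6 was at 61.6 to 108.3 CPM in controls and 60.7 to 96.7 CPM after RAM siRNA, with a log2 fold change of 0.02 (SE 0.25) whose sign depended on the scaling, being -0.04 on library sizes alone.

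Control cells alone showed how strongly each marker transcript was represented on polysomes. Of the 10 members, 6 were higher in polysomes than in input and 2 lower, so 8 passed the threshold beside 67.4% of all tested genes, with 33.1% higher and 34.3% lower. The 6 higher were Epcam, Cldn6, Cldn7, Krt8, Krt18 and Vim, and the 2 lower were Fn1 and Zeb1. Each of these 8 had a ratio of the same sign in 4 of 4 replicates.

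Epcam had log2 polysome over input ratios of 1.55, 1.42, 1.52 and 1.29 in control replicates 1 to 4, and was 2.67-fold higher in polysomes by the edgeR fit (log2 1.42, SE 0.13, adjusted p = 3.56e-06). Cldn7 had ratios of 1.57, 1.16, 1.71 and 1.69 and was 2.82-fold higher (SE 0.17 on the log2 scale, edgeR adjusted p = 1.83e-05). Cldn6 had ratios of 1.28, 1.32, 1.37 and 1.35, with the smallest SD of the 10 members at 0.041, and was 2.47-fold higher (edgeR adjusted p = 0.000258). These 3 had the highest ratios of the 10 members. Vim was 1.77-fold, Krt8 1.89-fold and Krt18 1.84-fold higher, so the 3 intermediate filament genes lay close together, with edgeR adjusted p of 0.000642, 0.00136 and 0.00155.

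Fn1 was the most depleted from polysomes, with log2 ratios of -1.95, -1.30, -2.42 and -2.14 in control replicates and a polysome level of 25.9% of that in input (log2 -1.98, SE 0.19, edgeR adjusted p = 5.63e-06). Zeb1 had ratios of -0.81, -0.67, -1.13 and -1.53 and was at 50.6% of its input level (log2 -1.02, SE 0.19, edgeR adjusted p = 0.000615). Cdh1, with ratios of 0.06, 0.33, -0.40 and -0.36, had replicates on both sides of 0 (log2 -0.10, SE 0.18, edgeR adjusted p = 0.644). Esrp2 was lower in 3 of 4 replicates (log2 -0.33, SE 0.17, edgeR adjusted p = 0.103). Among the members below the threshold, the sign for Cdh1 changed with the filter on low counts, which set it to 0.04 when omitted.

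**Figure D3:**
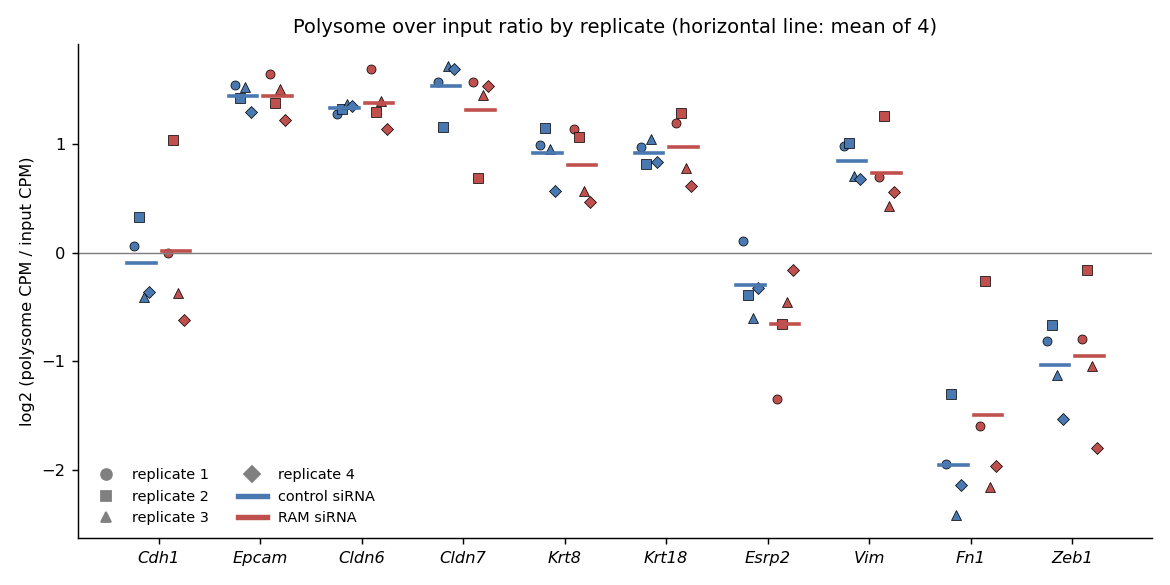
Log2 ratio of polysome to input CPM for each marker and same-numbered replicate pair, in control (blue) and RAM siRNA (red) cells, with horizontal lines at the mean of 4 ratios. Epcam, Cldn6 and Cldn7 are highest, with control means of 1.45, 1.33 and 1.53, Fn1 is lowest at -1.95, and control and RAM siRNA points overlap for every gene.

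Across the 10 members this ratio tended to be lower where exons were longer, though not in strict order. Fn1 with 11.685 kb and Zeb1 with 10.266 kb of exons were the longest and had the lowest ratios. The 5 members under 2.2 kb, Krt18, Cldn6, Cldn7, Krt8 and Epcam, were all above 0. Within those 5 the order did not follow length, with 0.91 for Krt18 at 1.437 kb and 1.45 for Epcam at 2.195 kb. Spearman's rho between exon length and mean log2 ratio was -0.685 over the 10 members and -0.301 over 12777 genes, given as a description across genes that share libraries. In all genes the median log2 ratio was 0.26 under 2 kb, 0.37 from 2 to 4 kb, -0.08 from 4 to 8 kb and -0.52 over 8 kb. Among the 3 members of 4.3 to 4.8 kb, Vim had a mean log2 ratio of 0.84, Cdh1 of -0.09 and Esrp2 of -0.30. These lengths join all annotated exons of a gene and can exceed that of the mRNA present. Whether the 3 mRNAs were alike in length is therefore not known. The part of length in these ratios was not tested.

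**Figure D4:**
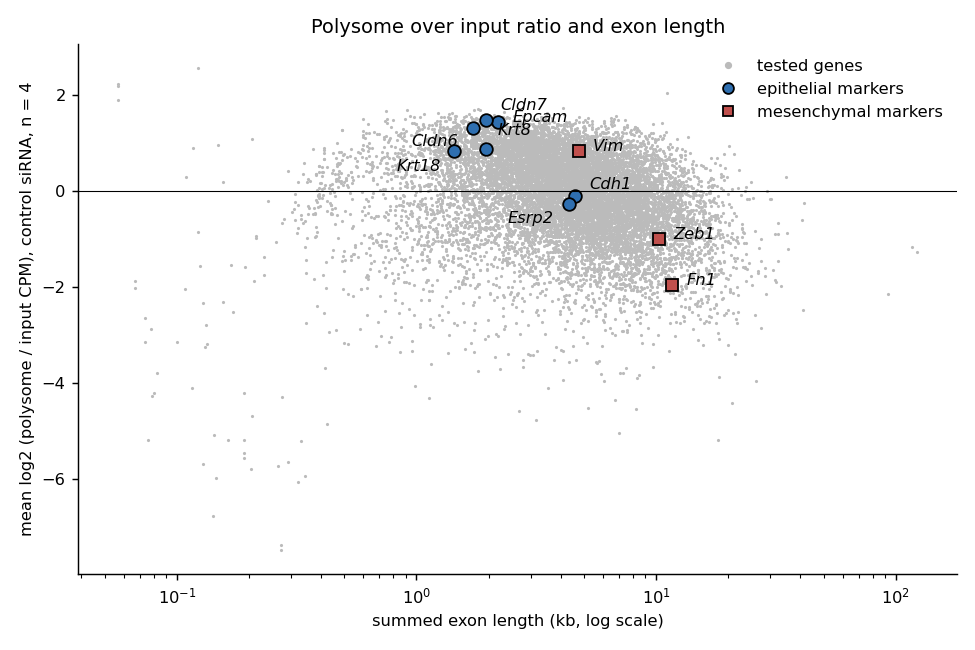
Mean log2 ratio of polysome to input CPM in control cells (n = 4) against summed exon length in kb on a log axis, for 12777 tested genes in grey, epithelial markers as blue circles and mesenchymal markers as red squares. Fn1 and Zeb1 lie lowest and farthest to the right among the markers, at -1.95 and 11.685 kb and at -1.04 and 10.266 kb.

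The last comparison asked whether RAM siRNA altered polysome representation beyond the change in input. No member passed the test of the interaction between fraction and siRNA (edgeR's quasi-likelihood test over all 16 libraries, adjusted p = 0.9997 for each), and 0.0% of all tested genes did, with 100 genes at an unadjusted p under 0.05 and 1 gene called by DESeq2. The estimates for Cldn7 (-0.19, SE 0.29) and Vim (-0.05, SE 0.31) were small beside their SE. Fn1 had the highest estimate at 0.62 (SE 0.44), which was 0.87 in replicates 1 and 2 alone and 0.22 in replicates 3 and 4 alone. The estimate was 0.09 without polysome RAM siRNA replicate 2. That fit kept control replicate 2, whose log2 ratio of -1.30 was the highest of the controls. The log2 ratios of Fn1 after RAM siRNA were -1.59, -0.26, -2.16 and -1.96, each above the ratio of the same-numbered control. With replicate blocks within each fraction Fn1 was at 0.46 (SE 0.19, unadjusted p = 0.0281, adjusted p = 0.955 by edgeR), and 0.0156% of all genes were called.

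Related genes were set beside the members in 7 lists of 92 genes, of which 71 were tested. In input 11 fell and 6 rose by edgeR's test, beside 5.94% of all tested genes lower and 6.95% higher, and with the block 25 fell and 13 rose, beside 19.0% lower and 20.3% higher. The 4 epithelial lists held 47 tested genes, of which 10 fell and 2 rose (22 and 6 with the block), with a median log2 fold change of -0.14. The 3 mesenchymal lists held 24 tested genes, of which 1 fell and 4 rose (3 and 7 with the block), with a median of 0.14, beside 0.00 for all tested genes. In polysomes 1 listed gene fell and none rose, beside 0.0234% of all tested genes called, and with the block 10 fell and 8 rose, beside 4.97% lower and 9.68% higher. Genes of these lists given with their fold changes are those past the threshold with the largest changes and a mean of at least 10 CPM, or the most abundant of a list where none passed. Tjp3, Crb3, Cgn, Pkp3, Esrp1, Ap1m2, Snai3 and Cdh2 are below that level and were chosen after their values were seen.

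Junction genes moved in both directions in input. In the adherens junction list 0 of 9 genes passed without the block, and 4 fell with it. Its most abundant genes, the catenins that anchor cadherins to actin, were at log2 fold changes of -0.01 (SE 0.08) for Ctnnb1 and -0.17 (SE 0.08) for Ctnna1. Among 18 genes of tight junctions and polarity 4 fell and 2 rose, beside 5.94% of all tested genes lower and 6.95% higher. With the block 8 fell and 3 rose, beside 19.0% lower and 20.3% higher. Lsr, a receptor of tricellular contacts, fell by 0.46 on the log2 scale (edgeR adjusted p = 0.00604), Tjp3 by 0.60 and the polarity gene Crb3 by 0.83 (edgeR adjusted p = 0.0223 and 0.0140). Ocln, which encodes occludin, rose by 0.28 and the tight junction adaptor Cgn by 0.81 on the log2 scale (edgeR adjusted p = 0.0230 and 0.00315). In the list of desmosomes and other keratins 7 of 11 genes were tested, and the plakophilin Pkp3 fell (log2 fold change -0.80, edgeR adjusted p = 0.00174). With the block 4 genes of that list fell and 3 rose. Tjp3, Crb3 and Ocln each lost the call when a library was left out, with edgeR adjusted p of 0.0723 for Tjp3, 0.0516 for Crb3 and 0.0789 for Ocln without RAM siRNA replicate 1. Tjp3 also lost it without control replicate 2 (0.0701), and Ocln without control replicate 1 (0.0878) or RAM siRNA replicate 2 (0.0683) or 3 (0.0524), all by edgeR.

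The epithelial regulators fell or stayed below the threshold, with 5 of 13 tested genes lower (6 with the block) and none higher in either fit. Esrp1, the paralogue of Esrp2, fell from 6.30 ± 0.89 to 1.96 ± 0.47 CPM in input (SD, n = 4, log2 fold change -1.68, edgeR adjusted p = 0.000213). It was the only listed gene called in polysomes, from 7.07 ± 0.54 to 2.16 ± 0.28 CPM (log2 fold change -1.66, edgeR adjusted p = 0.0213), a call lost without any 1 library except RAM siRNA replicate 2, at adjusted p of 0.0722 to 0.144 by edgeR. Rbm47, another RNA-binding protein of epithelial splicing, fell by 0.80 on the log2 scale (edgeR adjusted p = 0.000492). The membrane protease St14 fell by 0.70 and its inhibitor Spint1 by 0.54 (edgeR adjusted p = 0.00589 and 0.0210), and the sorting adaptor Ap1m2 by 1.05 (edgeR adjusted p = 0.0133). The call for Spint1 was lost without control replicate 1 (edgeR adjusted p = 0.0591) or 2 (0.0717).

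On the mesenchymal side, 6 of 10 EMT transcription factors were tested, and Snai3 fell (log2 fold change -1.19, edgeR adjusted p = 0.000360). Zeb2 at 0.27, Snai2 at 0.51 and Twist1 at 0.19 on the log2 scale, named for their role in EMT and not by that rule, did not pass, and Snai1, Twist2, Foxc2 and Prrx1 were too low to be tested. Of 12 tested genes of mesenchymal matrix and cytoskeleton 4 rose and none fell without the block, beside 6.95% of all tested genes higher. With the block 5 rose and 1, Lgals1, fell, beside 20.3% higher and 19.0% lower. Tagln, an actin-binding protein of contractile cells, rose from 9.53 ± 3.04 to 26.8 ± 4.71 CPM (SD, n = 4, log2 fold change 1.49, edgeR adjusted p = 0.000608). Cdh2, the cadherin that replaces E-cadherin in mesenchyme, rose by 0.70 on the log2 scale, the matrix protein gene Thbs1 by 0.69 and the matrix protease Mmp2 by 0.47 (edgeR adjusted p = 0.0103, 0.0405 and 0.0122). Thbs1 lost the call without control replicate 2 or 4 or RAM siRNA replicate 1, 2 or 3, at edgeR adjusted p of 0.0660 to 0.121. Vim thus fell while these 4 genes rose. None of 6 tested fibronectin receptor genes passed without the block, with Itgb1 at a log2 fold change of 0.06 (SE 0.09) and Sdc4 at 0.24 (SE 0.10). In one fit of all 16 libraries the input calls of Lsr, Tjp3, Crb3, Ocln, Cgn, Pkp3, St14, Spint1, Cdh2, Thbs1 and Mmp2 were lost, at edgeR adjusted p of 0.0684 to 0.706.

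**Figure D5:**
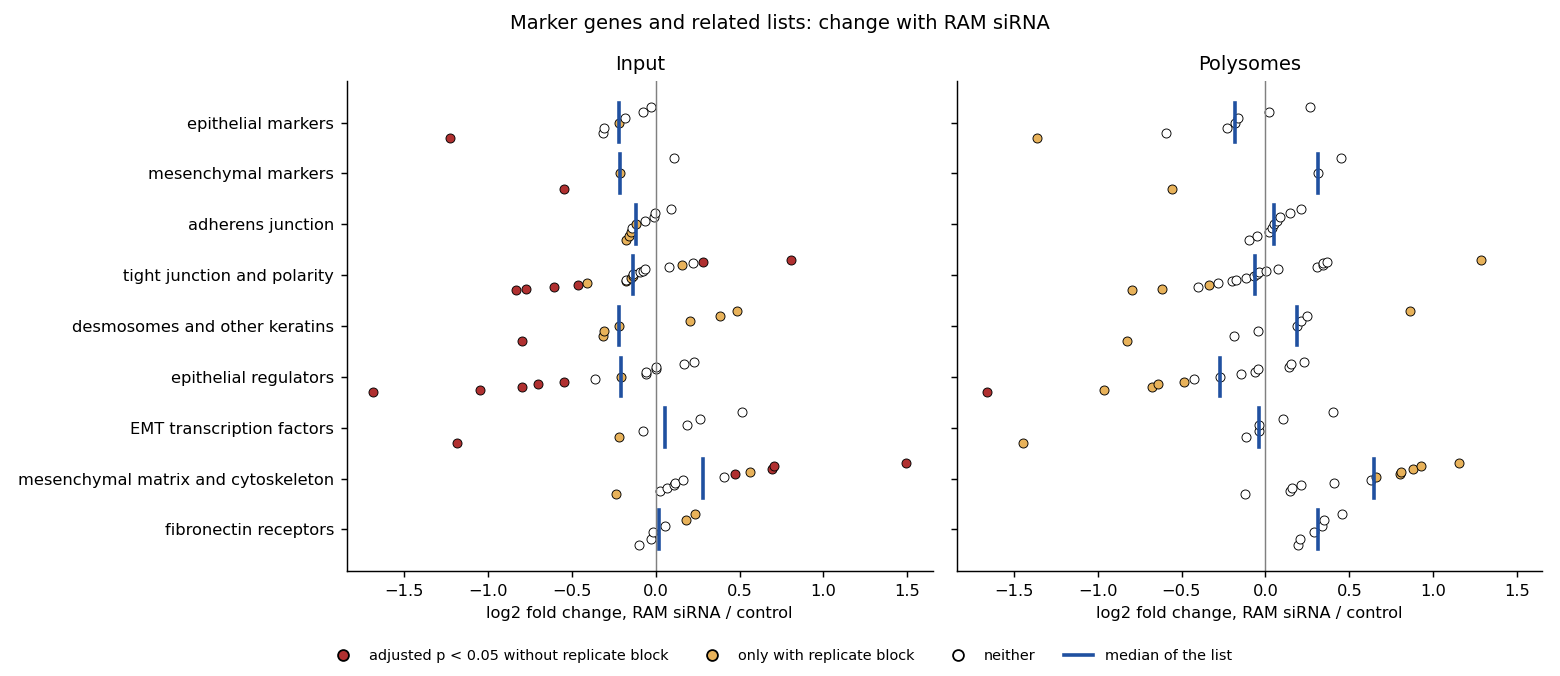
Log2 fold change between RAM siRNA and control for each tested marker and listed gene, in input on the left and in polysomes on the right, with genes in rows by list and sorted by value within a list. Red points passed an adjusted p of 0.05 without the replicate block, orange points passed only with it, white points passed neither, and blue lines are list medians. The median of mesenchymal matrix and cytoskeleton is at 0.28 in input and 0.65 in polysomes, and that of the epithelial regulators at -0.21 and -0.27.

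Markers of other cell types that express vimentin, fibronectin or simple keratins were low. Their summed levels in input overlapped narrowly between the siRNAs for extraembryonic endoderm and trophoblast, and did not overlap for fibroblasts. Of 7 fibroblast markers the summed level was 12.0 to 14.2 CPM in control inputs and 15.1 to 18.1 CPM after RAM siRNA, most of it from Thy1 and Pdgfrb. Pdgfrb was called higher (log2 fold change 0.52, edgeR adjusted p = 0.0268) and Thy1 was not (0.19, edgeR adjusted p = 0.325). Lum was at 0 in all inputs, and Col3a1 and Dcn were at 0 in all control inputs. Of 8 extraembryonic endoderm markers the summed level was 12.2 to 12.8 against 12.8 to 15.8 CPM, with Gata6 and Dab2 called higher and Ttr at 0 in all inputs. Sox7, on the same list, went from 4.38 to 2.56 CPM and was lower in 4 of 4 pairs (log2 fold change -0.77, edgeR adjusted p = 0.0573, and 0.00113 with the block). Of 7 trophoblast markers the summed level was 38.4 to 45.7 against 26.9 to 38.6 CPM, nearly all from Tfap2c and Eomes, which ESCs also express. Tfap2c was called lower (log2 fold change -0.38, edgeR adjusted p = 0.0493). Eomes was lower in 4 of 4 pairs (-0.31, edgeR adjusted p = 0.0798, and 0.0068 with the block). In polysomes the pattern differed. The sums of fibroblast markers overlapped there, at 14.08 to 25.24 CPM in controls and 22.54 to 29.39 CPM after RAM siRNA. Those of trophoblast markers did not, at 50.14 to 60.21 against 35.57 to 46.55 CPM, and those of extraembryonic endoderm overlapped. The part of such cells in the marker values was not tested.

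The genes whose pattern over the 16 libraries was most like each member were found by the root mean square difference of log2 CPM, each gene centred on its own mean, among 12805 genes. Epcam had the closest neighbour, B4gat1, at 0.058. Cdh1 was nearest to Cpt1a (0.104) and Mcm9 (0.107), Zeb1 to Mef2a (0.108) and Emsy (0.122), and Krt18 to Nckap1 (0.127) and Tars2 (0.138). Cldn7 was nearest to Ccne1 at 0.151, and the next gene, Tmem70, was already at 0.292. Fn1 was nearest to Hspg2 (0.166), which encodes the matrix proteoglycan perlecan, and to Gigyf1 (0.179), and Vim to Skap2 (0.178) and Ddx1 (0.184). Among the members themselves the keratin partners Krt8 and Krt18 were closest at 0.201, followed by Epcam and Cldn6 at 0.253, and Cldn7 was no nearer than 0.566 to another member.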

How the data were processed

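RNA was sequenced from input and pooled polysomes of 46C ESCs (4 groups of 4 libraries, TruSeq stranded total RNA with ribosomal RNA removal). Per the labels and the study's methods, the authors aligned reads to mm10 with STAR 2.5.1b and counted them per gene with HTSeq. The deposited values are raw counts, not normalized, and strand and multimapping settings and the annotation release are not given in the sources used here. Each library is 1 replicate of the group its label names.

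From the counts, genes that reached 1 CPM in 10 or more of 16 libraries were kept (12805 of 46983), scaled by TMM and tested with edgeR 4.0.16 (quasi-likelihood, R 4.3.3) over all kept genes, with Benjamini-Hochberg adjustment and a threshold of 0.05. Such scaling measures each gene against the others, so a change shared by all mRNA is not seen. Only the 8 libraries of a comparison entered its fit, and all 16 that of the interaction. Exact permutation tests and the likeness of genes used log2(CPM + 0.5). Steps were tested on simulated data. Symbols were matched for 46488 IDs, positions and exon lengths come from GENCODE (GRCm38) and promoter windows from RefSeq (GRCm38.p6). Exon length was the union of all annotated exons of a gene, so levels per kb can be too low where the mRNA is shorter. Pairs of libraries in a group differed by more than sampling noise (chi-square per gene of 4.57 or more), so none was merged. Same-numbered libraries deviated together over 9140 genes, with correlations of 0.400 to 0.797 for input, 0.625 to 0.944 for polysomes and 0.237 to 0.711 between fractions. Different-numbered libraries had mean correlations of -0.197 for input and -0.273 for polysomes. Deviations were taken from each group's own mean, which by itself pulls these means below 0. The highest correlations of different-numbered libraries were 0.196 for input and 0.645 for polysomes, so the polysome ranges overlapped and the input ranges did not. On these ranges the replicate numbers were taken to pair the samples. The main fit left this pairing out, because the study's methods name no block. The fit with the block took it in and called 2433 genes lower and 2595 higher in input. Those counts lie nearer to the study's own than the counts without the block. Other alternatives were DESeq2 1.42.0, limma 3.58.1 (voom), other scalings, no filter, replicate pairs alone and single libraries left out. The members, lists, motif and tests were chosen with earlier results of these data known. Intervals and standard errors cover the spread between these 4 replicates. One listed gene and one motif match are not reported here.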

Additional observations from a re-analysis of the deposited data

Results flagged for a closer look

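Within groups of 4 libraries, 3 of 40 member and group combinations held a value whose gap to the nearest library exceeded Dixon's critical share of the range at 95%, where chance gives about 1 in 20. All 3 were control replicate 3. Cldn6 was at 41.95 CPM in that input library, above the other 3 controls by 0.916 of the group's range, and at 108.3 CPM in the polysome library from the same lysate, by 0.880 of the range. Vim was at 194.5 CPM in the same input library, below the other 3 by 0.903 of the range. Without input control replicate 3 the log2 fold change in input was 0.13 for Cldn6 and -0.62 for Vim, and Vim kept its call (edgeR adjusted p = 0.00219).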

How the results depend on the processing

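For input, 2 members and 1651 genes were called. With the replicate block these became 4 and 5028, with replicates 3 and 4 alone 0 and 0, and with all 16 libraries in one fit 1 and 186. With replicates 1 and 2 alone 2629 genes were called, and with 1 library left out 913 to 2506 genes and 2 members each time. For polysomes, 0 members and 3 genes were called. These became 1 and 39 without the filter, 1 and 300 with DESeq2, 2 and 1875 with the replicate block, and 1 and 453 with all 16 libraries. With either replicate pair alone 0 genes were called, and 0 to 48 with 1 library left out. For polysome loading, 0 genes became 1 with DESeq2 and 2 with blocks within each fraction. The replicate block moved Ramac in polysomes from -2.52 to -2.58 and past the threshold. It changed the calls given in the report, those of Ctnna1 and Sdc4 in input (adjusted p = 0.00305 and 0.000178, edgeR) and no other call of a member or of Ramac. The block for Ramac was added after seeing the data. The cause of these shifts was not tested.

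Members that changed sign were below the threshold. Log2 fold changes in input became 0.054 for Cdh1 with replicates 1 and 2 alone and -0.083 to 0.027 with 1 library left out, -0.22 to 0.13 for Cldn6 with 1 left out, and for Ctnnb1 0.010 with replicates 3 and 4 and -0.048 to 0.027 with 1 left out. In polysomes Cdh1 became -0.15 with replicates 3 and 4 and -0.21 to 0.47 with 1 left out, Fn1 -0.059 to 0.66 and Zeb1 -0.025 to 0.51. Cldn6 in polysomes became -0.037 on library sizes, -0.034 without the filter, -0.028 with all 16 libraries, -0.096 with replicates 3 and 4, and -0.17 to 0.27 with 1 left out. Cdh1 in control polysomes against input became 0.042 without the filter, 0.15 with replicates 1 and 2 and -0.24 to 0.028 with 1 left out. For polysome loading with replicates 3 and 4, values became -0.098 for Cdh1, -0.072 for Cldn6, -0.25 for Krt18, 0.15 for Esrp2 and -0.067 for Zeb1. With replicates 1 and 2 they became 0.089 for Epcam, 0.074 for Krt8 and 0.10 for Vim. Epcam was 0.042 with DESeq2 or its size factors, 0.013 on library sizes and 0.073 without the filter, and Vim 0.020 without the filter. With 1 library left out loading was -0.25 to 0.47 for Cdh1, -0.084 to 0.11 for Epcam, -0.16 to 0.26 for Cldn6, -0.049 to 0.24 for Krt18, -0.39 to 0.088 for Krt8, -0.36 to 0.10 for Vim and -0.20 to 0.37 for Zeb1. Esrp2 and Krt18, with the fewest counts, had the widest counting error.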
